A study of Mus musculus with 6 samples.

Results

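Ribosome biogenesis and nucleolar genes were examined in RNA of cells sorted from the subventricular zone of adult mice, a neurogenic region beside the lateral ventricles. The 35 genes were rows of the deposited table whose gene name was on a list of nucleolar factors, out of 55487 rows in all, and all 35 passed the filter of a mean of at least 10 normalized reads. Of the 6 libraries, 3 came from knockout mice, E2F1(-/-);E2F3(F/F), and 3 from heterozygous mice, E2F1(+/-);E2F3(F/+). All mice carried NestinCreERT2 and an R26 EYFP reporter on a mixed C57BL/6;Sv/129;FVB/N background. They were 6 to 10 weeks old and received tamoxifen by gavage (200 mg/kg, daily on 5 days), and the cells were collected 10 days after it ended. Each library pools several mice to reach a minimum of 200000 sorted reporter-positive cells. No group was wild type, since the heterozygous mice lacked 1 E2f1 allele and carried 1 floxed E2f3 allele. NestinCreERT2 limits recombination of E2f3 to Nestin-expressing cells and their descendants, whereas the E2f1 mutation is in every cell. The comparison cannot tell the loss of one gene from that of the other.

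Ribosomes are assembled in the nucleolus. RNA polymerase I transcribes a long precursor there, small nucleolar ribonucleoproteins (snoRNPs) guide its chemical modification, and large sets of assembly factors fold and cut it into the RNAs of the small and large subunits. In neural stem cells, protein synthesis and ribosome production are known to increase when quiescent cells are activated. MYC-family factors are known activators of many of these genes, and E2F factors are best known for activating genes of DNA replication and the cell cycle.

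Promoters of 5 of the 6 members with the smallest p-values are shown, because 4 of them hold letters of an E2F or MYC motif and Nop56 is the gene that passed the test. The member left out, Noc2l, had no match to either motif in its windows, so the promoters shown are a choice and not typical of the members. The windows run from 250 bases before to 50 bases after a RefSeq transcript start on GRCm38.p6, each read on the strand of its gene. They are chr2:130274162-130274461 on the plus strand for Nop56, chr1:59684756-59685055 on the plus strand for Nop58, chr19:46075597-46075896 on the plus strand for Nolc1, chr1:86359406-86359705 on the minus strand for Ncl and chr17:71615965-71616264 on the plus strand for Wdr43. Capitals mark an E2F match (TTTCCCGC, TTTCGCGC, TTTGCCGC or TTTGGCGC on either strand) or an E-box match (CACGTG, the same on both strands).
Nop56: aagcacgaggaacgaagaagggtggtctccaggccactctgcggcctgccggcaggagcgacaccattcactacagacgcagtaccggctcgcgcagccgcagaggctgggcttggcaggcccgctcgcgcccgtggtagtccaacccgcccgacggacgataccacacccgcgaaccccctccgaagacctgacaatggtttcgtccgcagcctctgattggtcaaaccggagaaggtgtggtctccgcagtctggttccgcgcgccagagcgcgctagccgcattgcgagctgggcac
Nop58: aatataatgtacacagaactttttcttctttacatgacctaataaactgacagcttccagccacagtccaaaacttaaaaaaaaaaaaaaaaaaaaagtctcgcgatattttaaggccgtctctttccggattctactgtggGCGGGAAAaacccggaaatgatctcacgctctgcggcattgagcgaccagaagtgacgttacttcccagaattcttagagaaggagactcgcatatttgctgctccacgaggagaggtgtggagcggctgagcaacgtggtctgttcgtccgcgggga
Nolc1: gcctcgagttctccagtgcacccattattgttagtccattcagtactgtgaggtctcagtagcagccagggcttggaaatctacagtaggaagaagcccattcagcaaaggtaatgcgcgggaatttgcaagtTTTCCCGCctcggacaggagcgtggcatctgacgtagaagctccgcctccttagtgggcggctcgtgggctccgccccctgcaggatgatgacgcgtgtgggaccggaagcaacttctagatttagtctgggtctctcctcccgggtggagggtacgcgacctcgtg
Ncl: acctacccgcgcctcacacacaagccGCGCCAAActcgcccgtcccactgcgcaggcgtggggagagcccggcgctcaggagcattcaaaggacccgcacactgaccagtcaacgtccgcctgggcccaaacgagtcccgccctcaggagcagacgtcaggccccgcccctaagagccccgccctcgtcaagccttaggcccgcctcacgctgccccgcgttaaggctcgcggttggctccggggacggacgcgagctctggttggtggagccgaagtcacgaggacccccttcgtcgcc
Wdr43: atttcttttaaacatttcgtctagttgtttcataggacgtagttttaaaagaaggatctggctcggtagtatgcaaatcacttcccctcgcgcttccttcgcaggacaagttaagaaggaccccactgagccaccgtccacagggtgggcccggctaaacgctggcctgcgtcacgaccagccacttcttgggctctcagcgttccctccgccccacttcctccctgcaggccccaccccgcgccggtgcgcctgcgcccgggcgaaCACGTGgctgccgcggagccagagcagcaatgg

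A RefSeq promoter was matched by symbol for 30 of the 35 members. E2F letters were in the windows of 3 genes, at position -108 from the start in Nop58, -117 in Nolc1 and -224 in Ncl. That is 10.0% of the 30 members, against 4.33% of 12507 tested genes with a window, 3.31% of 121 other ribosome biogenesis genes and 33.3% of 33 genes of the mitosis and DNA replication lists. E-box letters were in the windows of 4 members, Nop2, Utp20, Pes1 and Wdr43. That is 13.3% of the members, against 11.1% of tested genes and 20.7% of the other ribosome biogenesis genes. No member window held both motifs, and the Nop56 window held neither.

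Reads assigned to genes ranged from 19798675 to 25982361 per library. The targeted genes checked the labels in part. E2f1 had 375, 483 and 516 normalized reads in the knockout libraries A, B and C, against 1152, 1388 and 1029.5 in the heterozygous libraries A, B and C (normalized reads are reads divided by a size factor of the library). The groups did not overlap, and the log2 difference was -1.38 ± 0.22 (SE, limma adjusted p = 0.00559). E2f3 averaged 266 ± 50.1 normalized reads in knockout and 250.1 ± 44.0 in heterozygous libraries (SD, n = 3 each), and a count over the whole gene does not check recombination. None of the listed neuroblast, quiescent or ependymal markers was at 0 in any library.

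The comparison asks how the loss of E2f1 and E2f3 moved this gene set, and the members showed small differences, mostly of the same sign. The log2 difference (knockout minus heterozygous, on log2(normalized reads + 1)) was below 0 in 32 of the 35 members, or 91.4%, against 47.7% of 18227 genes tested. Its median was -0.41 (quartiles -0.51 and -0.31), or 1.33-fold lower, against a median of 0.05 over all genes tested (quartiles -0.44 and 0.66). Summed over the members, normalized reads were 44575, 44619 and 50538 in the knockout libraries A, B and C, against 62366, 73754 and 58323 in the heterozygous libraries A, B and C. The sums did not overlap. The members made up 0.193% to 0.205% of all reads in the knockout libraries and 0.256% to 0.296% in the heterozygous libraries. In bulk samples fewer cells of a type and less RNA per cell cannot be told apart.

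**Figure D1:**
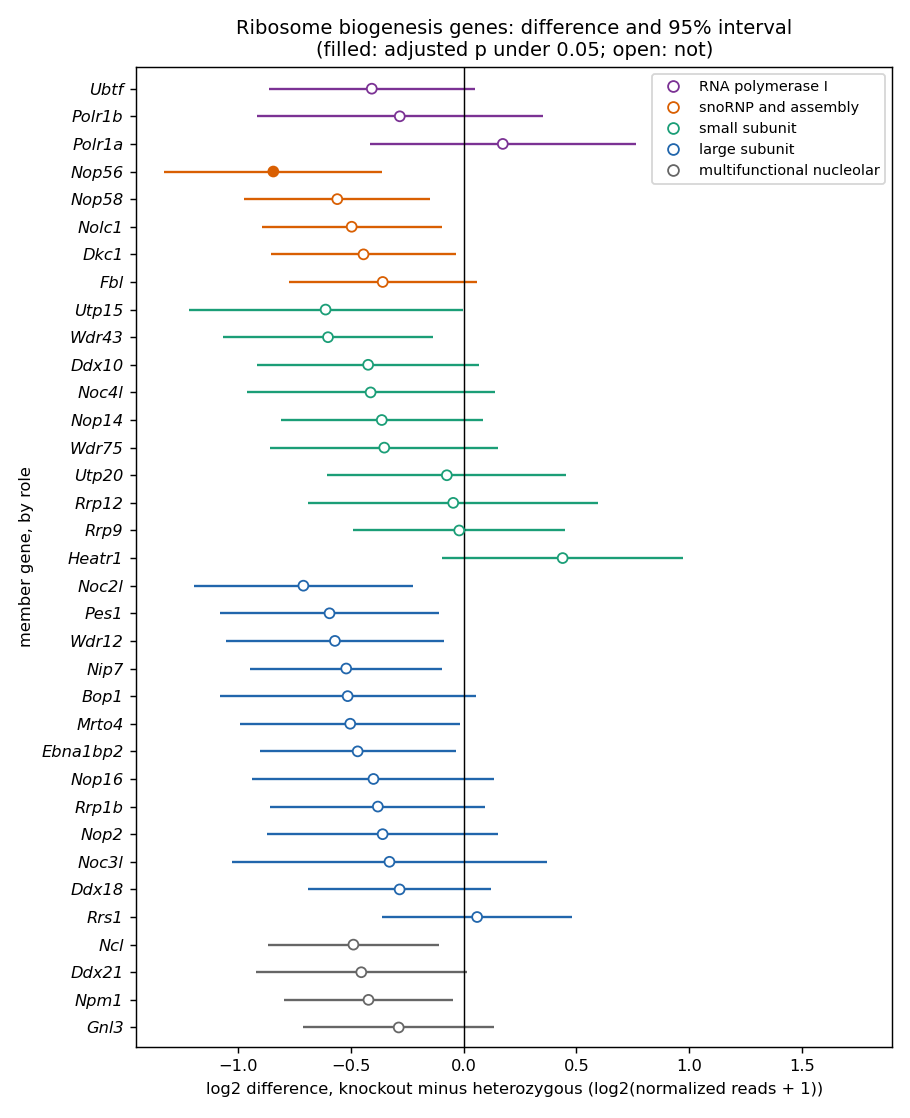
Log2 difference of each member, knockout minus heterozygous (x axis), with its 95% interval from limma, and genes grouped by role down the y axis. The filled point, Nop56, passed an adjusted p of 0.05, and 32 of 35 points lie left of 0.

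Single genes rarely passed the test. With limma and Benjamini-Hochberg adjustment at 0.05 over all genes, 1 member fell, Nop56, or 2.86% of the members against 8.59% of all genes tested, and 15.8% of all genes were called in either direction. No member was called higher by limma, edgeR or DESeq2, and 0 had an unadjusted limma p under 0.05 in that direction. Of all genes tested 7.23%, 7.78% and 11.3% were called higher by limma, edgeR and DESeq2, and 16.9% had an unadjusted limma p under 0.05 in that direction. edgeR called 1 member lower, Nop56, against 8.25% of its genes, and DESeq2 called 2, Nop56 and Noc2l, against 10.4%. At an unadjusted limma p under 0.05 14 members, or 40.0%, were lower, against 16.5% of all genes. With 1 library left out, 3 to 14 members had such a p in either direction.

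All 3 knockout libraries lay below all 3 heterozygous libraries in 22 members, or 62.9%, against 20.2% of all genes. They lay above them in 1 member, Heatr1, against 18.5% of all genes, and 38.7% of all genes showed no overlap in either direction. Of the 35 intervals of the members 27 lay between -1 and 1, which leaves a 2-fold change outside the 95% interval of those genes. The authors' deposited table called 3 members lower and 0 higher, namely Nop56, Noc2l and Nop58, with adjusted p-values of 0.00365, 0.0284 and 0.0427. It called 6.83% of its 31628 genes with an adjusted p lower and 7.44% higher. The deposited table also holds a weight for each gene (IHW), so its adjusted p-values are not adjusted like the Benjamini-Hochberg ones above. In DESeq2 on recovered reads Nop58 had the same log2 difference, -0.57, with an adjusted p of 0.0514.

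**Figure D2:**
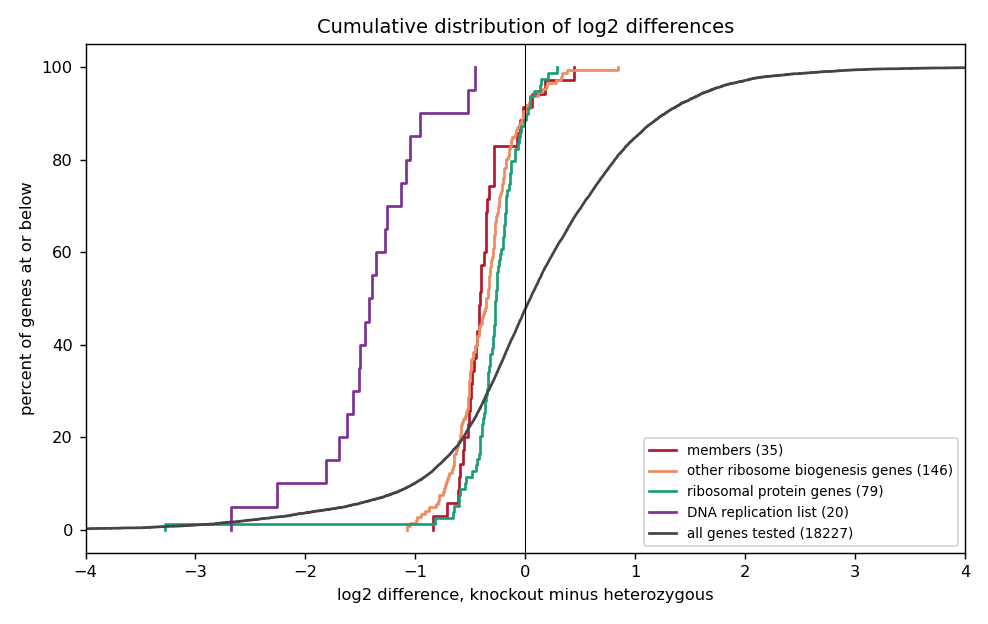
Cumulative percent of genes (y axis) at or below each log2 difference, knockout minus heterozygous (x axis, drawn from -4 to 4), for the members, 3 other gene lists and all genes tested, with the number of genes in brackets. The members' curve is steep, with its median at -0.41, while the median is -1.41 for the DNA replication list and 0.05 for all genes.

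The 3 RNA polymerase I genes overlapped between the groups, as most genes did, since 38.7% of all genes tested showed no overlap in either direction. Ubtf, the upstream binding factor of ribosomal DNA, had 1584, 1637 and 2223 normalized reads in the knockout libraries A, B and C, against 2419, 2698 and 2057 in the heterozygous libraries A, B and C. Knockout C lay above heterozygous C, and the log2 difference was -0.41 ± 0.20 (interval -0.86 to 0.050, limma adjusted p = 0.193). Polr1a, which encodes the largest subunit of the polymerase, averaged 732 ± 182 normalized reads in knockout and 648 ± 146 in heterozygous libraries (SD, n = 3 each), a difference of 0.17 (interval -0.42 to 0.76). Polr1b, the second largest subunit, averaged 486 ± 124 normalized reads in knockout and 592 ± 159.6 in heterozygous libraries, a difference of -0.28 (interval -0.92 to 0.35). The Polr1b difference was -0.084 without heterozygous A, -0.10 without knockout A, and -0.47 without knockout C or without heterozygous B.

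The snoRNP genes held the member that fell. Nop56 (ENSMUSG00000027405, GRCm38 chromosome 2, 130274430 to 130279313, plus strand) encodes a core protein of box C/D snoRNPs, which guide methylation of ribosomal RNA. It had 4201, 3896 and 4676 normalized reads in the knockout libraries A, B and C, against 6359.8, 10200.3 and 6806 in the heterozygous libraries A, B and C. The groups did not overlap, and heterozygous B stood well above the other two heterozygous libraries. The log2 difference was -0.84 ± 0.22 (SE), a 1.79-fold decrease (limma adjusted p = 0.0308, edgeR adjusted p = 0.0320). It was -0.63 (adjusted p = 0.0870) without heterozygous B, -0.97 (adjusted p = 0.0593) without heterozygous A and -0.78 (adjusted p = 0.137) without knockout B, and so was not called without any 1 of these.

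Nop58 (ENSMUSG00000026020, chromosome 1, 59684971 to 59719044, plus strand), which pairs with Nop56 in the same particle, had 1484, 1365 and 1334 normalized reads in the knockout libraries A, B and C, against 2162, 2293 and 1745 in the heterozygous libraries A, B and C. The groups did not overlap, but the log2 difference of -0.56 ± 0.18 did not pass (interval -0.97 to -0.15, limma adjusted p = 0.0660). Nolc1, a nucleolar chaperone of snoRNPs, had 1463, 1761 and 1909 normalized reads in the knockout libraries A, B and C, against 2365, 2474 and 2358 in the heterozygous libraries A, B and C. Its 3 heterozygous values were close together, and the difference was -0.50 ± 0.18 (limma adjusted p = 0.0849). Dkc1, dyskerin, the pseudouridine synthase of box H/ACA snoRNPs, averaged 1870.3 ± 247 normalized reads in knockout and 2538 ± 252 in heterozygous libraries (SD, n = 3 each), a difference of -0.44 (interval -0.85 to -0.033). Fbl, fibrillarin, the methyltransferase of the box C/D particle, averaged 876 ± 37.9 normalized reads in knockout and 1127 ± 123 in heterozygous libraries, a difference of -0.36 (interval -0.78 to 0.059).

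In all 5 snoRNP genes the 3 knockout libraries were below the 3 heterozygous ones, against 20.2% of all genes, and 4 of the 5 were lower at an unadjusted limma p under 0.05, against 16.5% of all genes. Their summed normalized reads were 9629.9 to 10958 in knockout and 14196 to 18938 in heterozygous libraries. Per kilobase, with the union of annotated exons as the length, mean normalized reads of Nop56 were 1039 in knockout and 1900.1 in heterozygous libraries, and those of Npm1 were 1417 in knockout and 1903 in heterozygous libraries. The lowest member per kilobase was Utp20, at 31.9 in knockout and 33.8 in heterozygous libraries.

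Several members carry snoRNA genes in their introns or exons. In GENCODE M21 19 annotated snoRNA genes lie within 6 members, of which 5 are in Nop56, 4 in Nop58, 3 each in Ncl, Gnl3 and Wdr43, and 1 in Dkc1. The highest mean among them was 9.42 normalized reads, so these libraries hold almost no separate count for the snoRNAs.

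Of 10 small subunit genes 9 had a difference below 0, against 47.7% of all genes. By limma or edgeR 0 were called lower, against 8.59% and 8.25% of all genes tested, and 0 higher, against 7.23% and 7.78%. In 4 genes (40.0%, against 20.2% of all genes) the knockout libraries were all below the heterozygous ones, and 2 of 10 were lower at an unadjusted limma p under 0.05, against 16.5% of all genes. Wdr43, a subunit of the small subunit processome, had 1221, 1594 and 1878 normalized reads in the knockout libraries A, B and C, against 2448, 2489.8 and 2091 in the heterozygous libraries A, B and C. The groups did not overlap, and the difference was -0.60 ± 0.21 (limma adjusted p = 0.0756). Utp15, of the same processome, averaged 668 ± 174 normalized reads in knockout and 1013 ± 224 in heterozygous libraries (SD, n = 3 each), a difference of -0.61 (interval -1.22 to -0.0040), and its groups overlapped, with 796 in knockout C and 757 in heterozygous C.

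The RNA helicase gene Ddx10 and the processome genes Noc4l, Nop14 and Wdr75 had log2 differences between -0.42 and -0.35. Without heterozygous B those of Noc4l and Wdr75 were -0.16 and -0.21, and without knockout A that of Wdr75 was -0.18 and that of Utp15 was -0.38. Rrp9, a protein of the U3 snoRNP, had 1051, 971 and 944 normalized reads in the knockout libraries A, B and C, against 853, 1260.1 and 932 in the heterozygous libraries A, B and C. Its groups overlapped, with a difference of -0.019 (interval -0.49 to 0.45). Utp20 and Rrp12, also factors of small subunit maturation, had differences of -0.074 and -0.046, with intervals of -0.60 to 0.46 and -0.69 to 0.60.

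Heatr1, a processome subunit also linked to polymerase I transcription, had 463, 443 and 630.4 normalized reads in the knockout libraries A, B and C, against 407, 345 and 369 in the heterozygous libraries A, B and C. All 3 knockout values were above the heterozygous values, but the difference of 0.44 ± 0.24 did not pass (interval -0.094 to 0.97, limma adjusted p = 0.224), and it was 0.28 without knockout C. Heatr1 shares 155 bases of exon with Lgals8 on the opposite strand, which averaged 1291 ± 176 in knockout and 1146 ± 9.68 in heterozygous libraries (SD, n = 3 each). The library kit does not mark strand, so reads from such shared bases cannot be told apart. Among the members 10 share 5 to 598 exon bases with a coding gene on the opposite strand, and Nop56 shares 5 bases with Idh3b.

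**Figure D3:**
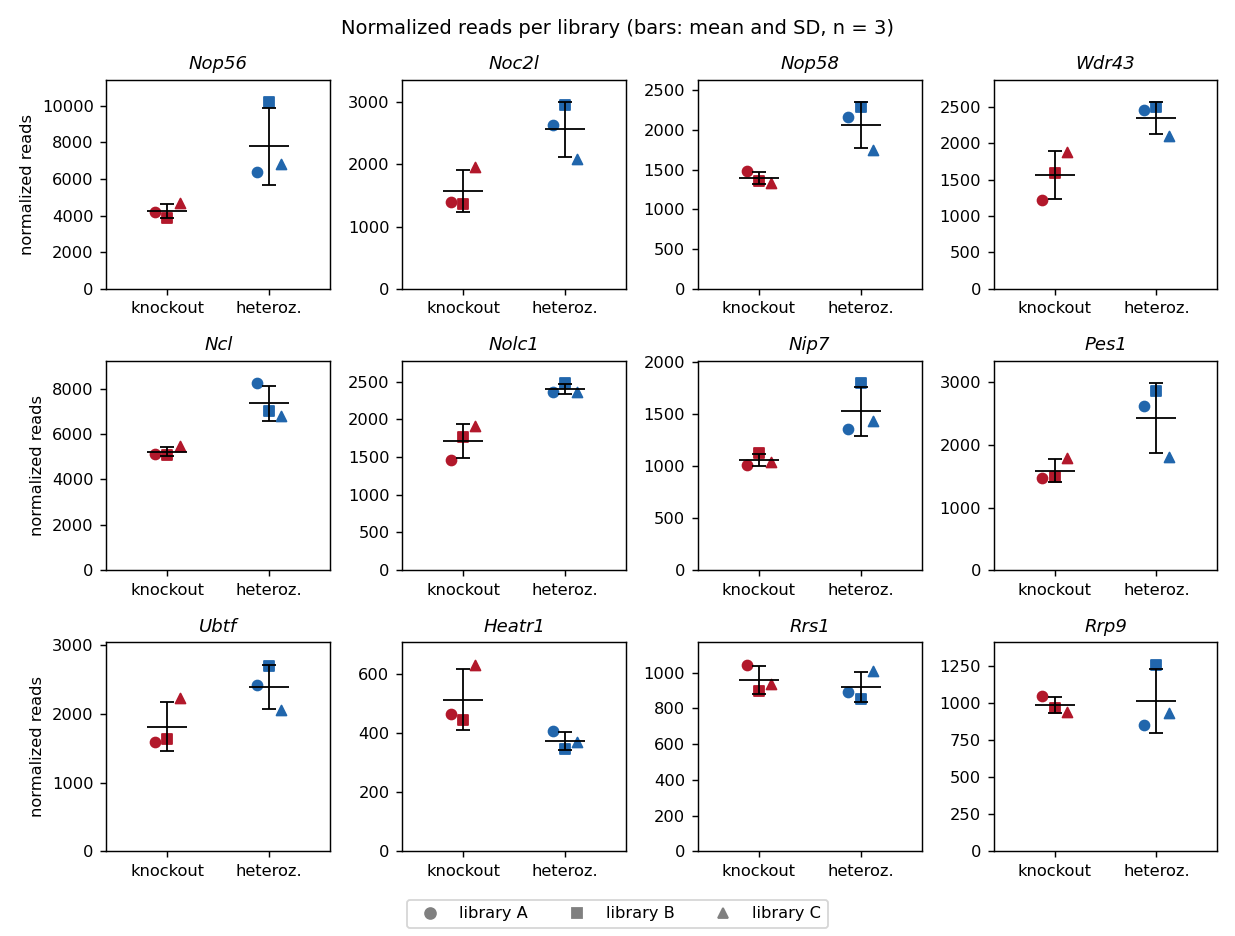
Normalized reads (y axis, from 0) of 12 members in each library, with knockout left and heterozygous right (x axis), markers for libraries A, B and C, and bars for the mean and SD (n = 3). Nop56 in heterozygous B, at 10200.3, is the highest value shown, and Heatr1 is the member whose knockout libraries all lie above the heterozygous ones.

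Among the large subunit genes 12 of 13 had a difference below 0, against 47.7% of all genes. By limma or edgeR 0 were called lower, against 8.59% and 8.25% of all genes tested, and 0 higher, against 7.23% and 7.78%. In 9 genes (69.2%, against 20.2% of all genes) the knockout libraries were all below the heterozygous ones, and 6 (46.2%, against 16.5%) were lower at an unadjusted limma p under 0.05. Noc2l, a factor that acts with precursors of the large subunit, had 1391, 1370.3 and 1954 normalized reads in the knockout libraries A, B and C, against 2634, 2958 and 2091 in the heterozygous libraries A, B and C. Knockout C and heterozygous C lay close together without overlap. The log2 difference was -0.71 ± 0.22 (interval -1.19 to -0.22, limma adjusted p = 0.0528), and DESeq2 called it (adjusted p = 0.0309).

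Pes1, Bop1 and Wdr12 encode the PeBoW complex, which matures the RNA of the large subunit. Pes1 had 1475, 1487 and 1799 normalized reads in the knockout libraries A, B and C, against 2617, 2865 and 1810.1 in the heterozygous libraries A, B and C. Knockout C lay just below heterozygous C, and the difference was -0.59 ± 0.22 (limma adjusted p = 0.0893). Wdr12 averaged 1043 ± 190.2 normalized reads in knockout and 1548 ± 280.4 in heterozygous libraries (SD, n = 3 each), a difference of -0.57 (interval -1.05 to -0.087), without overlap. Bop1 averaged 991 ± 233 normalized reads in knockout and 1425 ± 399 in heterozygous libraries, a difference of -0.51 (interval -1.08 to 0.054), with overlap, and of -0.29 without heterozygous B. Knockout C was the highest knockout library for all 3 genes.

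Nip7, which acts in processing of the ribosomal RNA precursor, had 1012, 1126 and 1035 normalized reads in the knockout libraries A, B and C, against 1353, 1793 and 1435 in the heterozygous libraries A, B and C. The groups did not overlap, and the difference was -0.52 ± 0.19 (limma adjusted p = 0.0889). The remaining genes Mrto4, Ebna1bp2, Nop16, Rrp1b, Nop2, Noc3l and Ddx18, which include an RNA methyltransferase (Nop2) and a helicase (Ddx18), had differences between -0.50 and -0.28. Without heterozygous B those of Mrto4, Ebna1bp2, Nop16 and Nop2 were -0.33, -0.30, -0.16 and -0.14. That of Noc3l was -0.072 without knockout A and -0.57 without knockout C, and that of Rrp1b was -0.22 without heterozygous A. Rrs1, which helps to load the 5S ribonucleoprotein in yeast, averaged 958 ± 76.9 normalized reads in knockout and 919.6 ± 81.9 in heterozygous libraries, a difference of 0.060 (interval -0.36 to 0.48), and overlapped.

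In all 4 multifunctional nucleolar genes the knockout libraries were below the heterozygous ones, against 20.2% of all genes. Of the 4 genes 0 were called lower by limma or edgeR, against 8.59% and 8.25% of all genes tested. None was called higher, against 7.23% and 7.78%. At an unadjusted limma p under 0.05 2 were lower, against 16.5% of all genes. Ncl, nucleolin, which binds the ribosomal RNA precursor, had 5124, 5092 and 5465 normalized reads in the knockout libraries A, B and C, against 8230.2, 7028 and 6799.7 in the heterozygous libraries A, B and C. The knockout values were close together and all below the heterozygous ones, with a difference of -0.49 ± 0.17 (limma adjusted p = 0.0769). Npm1, nucleophosmin, a chaperone of ribosomes and histones, averaged 3777 ± 154 normalized reads in knockout and 5072 ± 510.3 in heterozygous libraries (SD, n = 3 each), a difference of -0.42 (interval -0.80 to -0.045). Ddx21, an RNA helicase, and Gnl3, nucleostemin, a GTPase known from stem cells, had differences of -0.45 and -0.29, and that of Gnl3 was -0.18 without heterozygous B. The summed reads of this role were 10539 to 11246 in knockout and 14357 to 15135 in heterozygous libraries.

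Across the members, a higher mean of normalized reads went with a lower log2 difference (Spearman rho of -0.61 over 35 genes), and the same 6 libraries enter both measures. The rho was 0.03 over 146 other ribosome biogenesis genes and -0.19 over all genes tested with a gene model. Exon length gave a rho of 0.03 over the members. Genes are not independent replicates.

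The rest of the pathway was read from a list of 148 further names, of which 147 were in the table and 146 were tested. Their median log2 difference was -0.35, and 132 (90.4%) were below 0, against 47.7% of all genes. By list the median was -0.18 for polymerase I, -0.32 for snoRNP, -0.36 for small subunit and -0.44 for large subunit genes. It was -0.50 for genes of precursor trimming and decay, against -0.41 for the members. All 3 knockout libraries lay below all 3 heterozygous libraries in 67 of these genes (45.9%), against 62.9% of the members and 20.2% of all genes. They lay above in 1, against 18.5% of all genes. At an unadjusted limma p under 0.05 46 were lower, or 31.5% against 16.5% of all genes, and 0 were higher, against 16.9%. By limma 8 fell, or 5.48% against 8.59% of all genes, and 0 rose, against 7.23%. The counts were the same with edgeR, against 8.25% of its genes lower and 7.78% higher. DESeq2 called 18 lower and 0 higher, against 10.4% of its genes lower and 11.3% higher. Without knockout B or without heterozygous B the limma count called lower was 0, against 3.23% and 2.55% of all genes. Without heterozygous A it was 1, against 3.19%, and without knockout C it was 16, against 11.3%.

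Of 17 further polymerase I genes 1 fell (5.88%, against 8.59% of all genes), Rrn3, the factor that brings the polymerase to its promoter. It had 919, 1166 and 1435 normalized reads in the knockout libraries A, B and C, against 2458, 2588 and 1933 in the heterozygous libraries A, B and C. The groups did not overlap, a 2.00-fold decrease (interval of the log2 difference -1.49 to -0.51, limma adjusted p = 0.0189). Of 51 further large subunit genes 5 fell (9.80%, against 8.59% of all genes). Among them were Rpf2, a partner of Rrs1 in yeast (2.07-fold), Spata5, an AAA ATPase (1.98-fold), and Tex10 (1.93-fold). Of 50 further small subunit genes 1 fell, Wdr3 (1.84-fold), or 2.00% against 8.59% of all genes. Of 14 genes of precursor trimming and decay 1 fell, the exosome subunit gene Exosc8 (2.11-fold), or 7.14% against 8.59%. Of 14 further snoRNP genes 0 fell by limma, against 8.59% of all genes, and 0 rose, against 7.23%. At an unadjusted limma p under 0.05 2 were lower (14.3%, against 16.5% of all genes). Of 79 ribosomal protein genes 3 fell, or 3.80% against 8.59% of all genes, with a median difference of -0.27. These genes can share reads with their pseudogenes.

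The MYC family did not move as one. Mycl fell 5.26-fold, with 567, 720.3 and 999 normalized reads in the knockout libraries A, B and C, against 4173, 4984 and 2866 in the heterozygous libraries A, B and C (limma adjusted p = 0.00131). Mycn averaged 1873 ± 497 normalized reads in knockout and 3479 ± 1817 in heterozygous libraries (SD, n = 3 each) and overlapped, with a difference of -0.80 (limma adjusted p = 0.140) that was -0.40 without heterozygous B. Myc averaged 323 ± 88.4 normalized reads in knockout and 339 ± 25.6 in heterozygous libraries, a difference of -0.10 (interval -0.71 to 0.51). Max, the dimer partner of MYC proteins, rose 2.01-fold, at 1261 ± 417 normalized reads in knockout and 608 ± 80.0 in heterozygous libraries (SD, n = 3 each, limma adjusted p = 0.0315). Max was not called without knockout B or without any 1 heterozygous library, with limma adjusted p-values of 0.0727 to 0.145.

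By the median level, the members stood in the same order of libraries as markers of mitosis and as the DNA replication list. The median level of the members, as log2 relative to the mean of the 6 libraries, was -0.28, -0.24 and -0.057 in the knockout libraries A, B and C, against 0.11, 0.36 and 0.060 in the heterozygous libraries A, B and C. Heterozygous B was the highest of its group in 25 of 35 members, and knockout C the highest of its group in 23. For 20 mitosis genes the medians were -1.64, -1.53 and -0.77 in the knockout libraries A, B and C, against 1.43, 1.78 and 0.87 in the heterozygous libraries A, B and C. For the DNA replication genes they were -1.09, -0.75 and -0.17 in the knockout libraries A, B and C. In the heterozygous libraries A, B and C they were 0.70, 1.16 and 0.28. By these medians knockout A was lowest in each list, heterozygous B was highest, and knockout C and heterozygous C were the nearest pair across the groups. The groups did not overlap in any of these lists, which by itself sets part of the order. In the neuroblast list knockout B (-1.81) was below knockout A (-1.73). As a percent of all reads the order of the knockout libraries differed between the members and the mitosis genes. The members had 0.205%, 0.193% and 0.201% in the knockout libraries A, B and C, and the mitosis genes 0.0357%, 0.0361% and 0.0581%.

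Beside these values, all 20 mitosis genes and all 16 neuroblast genes fell, with median log2 differences of -2.72 and -3.07, and 16 of 20 DNA replication genes fell, with a median of -1.41. Of all genes tested 8.59% fell and 7.23% rose by limma, and 16.9% were higher at an unadjusted limma p under 0.05. Summed normalized reads of the neuroblast markers were 15519 to 20256 in knockout and 85565 to 138421 in heterozygous libraries. Those of the quiescent and astrocyte markers were 739890.0 to 1110320.0 in knockout and 543163 to 758194 in heterozygous libraries, and 2 of these 16 genes rose. Those of the ependymal markers were 20401 to 86389.5 in knockout and 14321 to 16443 in heterozygous libraries, and 8 of these 12 genes rose. The endothelial sums were 3542 to 30643 in knockout and 4991 to 5201 in heterozygous libraries, with 0 of 10 genes passing limma and 2 higher at an unadjusted p under 0.05. Summed oligodendrocyte markers were 76907 to 95609 in knockout and 49504 to 71255 in heterozygous libraries, without overlap, and 0 of 10 genes passed limma, with 3 higher at an unadjusted p under 0.05.

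Summed mural markers were 12405 to 32124 in knockout and 8584 to 18044 in heterozygous libraries, and 1 of 6 genes rose, against 7.23% of all genes. Of 8 mature neuron markers 6 were tested, and up to 2 of the 8 were at 0 in a library. Of the 6 tested 4 fell and 1 rose, against 8.59% and 7.23% of all genes, with a median difference of -1.86. The summed reads of the 8 overlapped, at 2728 to 3274.5 in knockout and 2666 to 3658 in heterozygous libraries. Knockout A had the highest sums of microglia markers (11797) and erythrocyte markers (21655), against highest values of 7479 and 5377 among the other libraries. The part of all these markers in the members' difference was not tested.

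**Figure D4:**
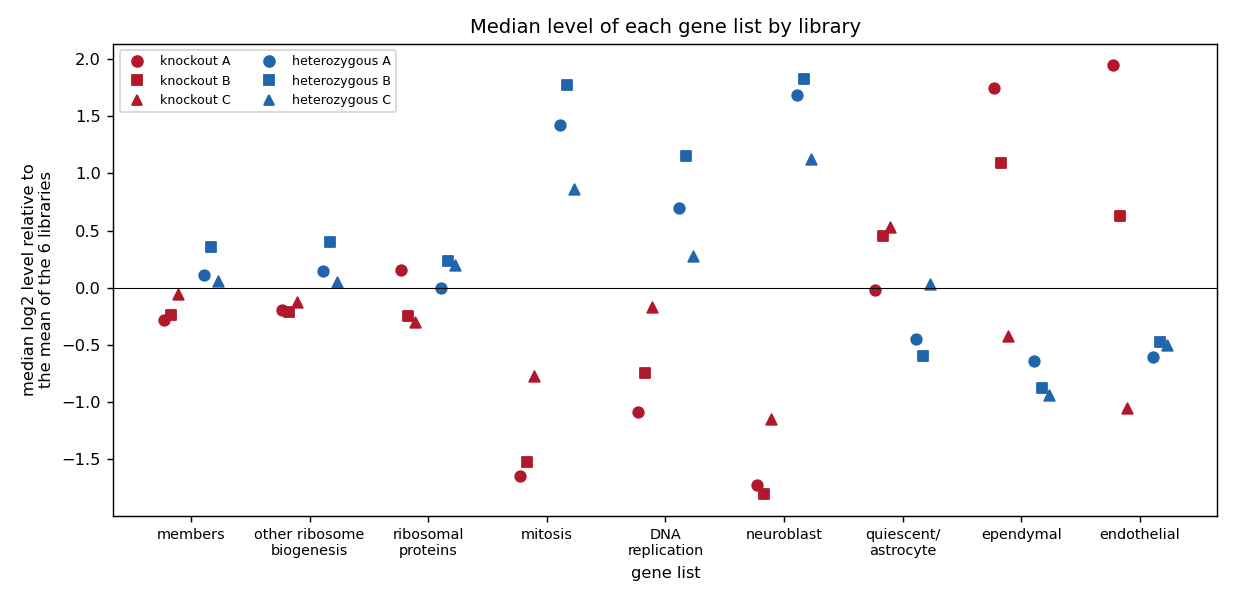
Median log2 level of each gene list relative to the mean of the 6 libraries (y axis) by list (x axis), with the knockout libraries in red left of the heterozygous libraries in blue. The members span -0.28 to 0.36, and the mitosis list spans -1.64 to 1.78.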

How the data were processed

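Alignment with HISAT2, counting with featureCounts of Subread on GRCm38, and a comparison with DESeq2 are named in the submitters' processing notes, with no versions. Per the labels' protocols, cDNA was made with SMART-Seq v4 and libraries with Nextera XT. The table holds a normalized signal for each library, for which the authors divided a gene's count by the size factor of its library. Every value was a whole multiple of a single step per library (100% within a tolerance of 0.001 reads), which gave back the reads. The same deposited table has the authors' log2 fold change, its p-value and adjusted p-value, a test statistic (a score) and an IHW weight for each gene.

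Values were tested with limma 3.58.1 (R 4.3.3, trended variance, two-sided) as log2(value + 1), with genotype as the only term. Rows with a mean of at least 10 entered (18227), with Benjamini-Hochberg adjustment over all of them. This scale slightly understates changes of low genes. Recovered reads were tested with edgeR 4.0.16 (quasi-likelihood) and DESeq2 1.42.0 as alternatives. Members and lists were chosen with earlier results of these data known. Named with library values were members called and those with the smallest p of each role. Rrp9, Heatr1, Nop58, Nolc1, Pes1 and Nip7 were added after their values were seen. Of each other list, up to 3 called genes were named. The libraries are pools of mice, and p-values measure the spread between pools. Chi-square tests of the counts separated every pair of libraries beyond sampling noise. Gene models are from GENCODE M21. The limma step was tested on simulated data with 3 libraries per group, where it missed most 2-fold changes and found most 4-fold changes, and its share of false calls was above the threshold of 0.05. That was a single draw in which far fewer genes were changed than were called here, so its shares need not hold for these data. The members also had smaller standard errors (median 0.215, against 0.305 over all genes tested). Figures were drawn with matplotlib 3.10.9.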

Additional observations from a re-analysis of the deposited data

How the results depend on the processing

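The count of members called lower was 1 with limma, with edgeR under TMM or upper-quartile factors, with median centring, a pseudocount of 0.5 or no filter. In these settings 4.29% (no filter) to 9.11% (median centring) of all genes tested were called lower. The count was 2 with DESeq2, a pseudocount of 5 or a mean of at least 50, 0 at an adjusted p of 0.01 and 9 at 0.1. The shares of all genes called lower were 10.4%, 9.04%, 11.6%, 2.76% and 13.2% in that order. With 1 library left out the count ranged from 0 to 4, being 4 without knockout C, 2 without heterozygous C and 0 without knockout B, heterozygous A or heterozygous B. Of all genes, 11.3% were called lower without knockout C, 7.55% without heterozygous C and 3.23% without knockout B. The share was 3.19% without heterozygous A, 2.55% without heterozygous B and 7.01% without knockout A. The labels do not say whether the letters pair libraries across genotypes. Deviations from the group means correlated at -0.07, 0.02 and -0.10 between the libraries of letters A, B and C, which with 3 libraries per group cannot settle it. With the letters as a replicate block the count of members called lower was 0, with an adjusted p of 0.0542 for Nop56. With the block 6.61% of all genes were called lower. Members at an unadjusted p under 0.05, in either direction, numbered 5 with the block, against 14 in the main fit. That count was 3 without knockout B, 7 without knockout A or without heterozygous B, and 9 without heterozygous A. It was 12 without heterozygous C and 14 without knockout C. The share of all genes at that p was not counted in these settings. Other ribosome biogenesis genes called lower numbered 18 with DESeq2, 0 at 0.01, 31 at 0.1, and 0 to 16 with 1 library left out. The shares of all genes in these settings are those given above. DESeq2 called 4452 genes in all, against 2883 by limma. Under the alternatives run, 0 members were called higher, the members' median lay between -0.50 and -0.33, and 29 to 33 members were below 0. The last count, and the 22 to 27 members without overlap when 1 library was left out, were added after seeing the data. Leaving out a library cannot make separated groups overlap, so the count without overlap could not fall below 22. It is therefore no check of that result, and the same count over all genes was not made. Some genes near 0 turned sign. With upper-quartile factors Rrp9 was at 0.060, Utp20 at 0.011, Rrp12 at 0.056 and Myc at 0.020. Rrp12 was at 0.0010 with edgeR and TMM, and Rrs1 at -0.0034 with centring. With 1 library left out, Polr1a ranged from -0.022 to 0.31, Rrp9 from -0.13 to 0.15, Utp20 from -0.15 to 0.033, Rrp12 from -0.28 to 0.087, Rrs1 from -0.0032 to 0.13, Myc from -0.31 to 0.084 and E2f3 from -0.058 to 0.21. The cause of these changes was not tested.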
